A study of Mus musculus with 24 samples.

Results

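The dual specificity phosphatases of MAP kinases form a small gene family, and 7 of its genes, Dusp1, Dusp2, Dusp4, Dusp5, Dusp6, Dusp10 and Dusp16, were followed here through regulatory and conventional CD4 T cells of 4 mouse tissues. The genes were chosen by symbol, through the Ensembl identifiers of the deposited table, and were 7 of its 35612 genes. The cells came from male C57BL/6 mice, 5 months old, of the Foxp3Thy1.1 strain, a reporter whose surface Thy1.1 marks cells that express Foxp3, and no group carried a deletion or received a treatment according to the labels. T cells were enriched on CD4 and sorted as live CD45+ TCRβ+ CD4+ CD8α- cells without NK-1.1 or CD1d tetramer staining, and were divided into Foxp3+ regulatory T cells (Treg) and Foxp3- conventional T cells (Tconv). There were 3 libraries of each cell type from each tissue: liver, spleen, blood (mononuclear cells, PBMC) and the lymph node that drains the liver (LDLN). A library held the pooled cells of 3 mice. Poly(A) RNA was amplified with SMARTer chemistry before sequencing.

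MAP kinases (ERK, JNK and p38) are switched on when a threonine and a tyrosine in their activation loop are phosphorylated, and the phosphatases encoded by these genes remove both phosphates. Dusp1, Dusp2, Dusp4 and Dusp5 encode nuclear enzymes whose genes are themselves induced by MAP kinase signalling, so that they act as feedback inhibitors. Dusp5 acts on ERK, and Dusp6, a cytoplasmic enzyme, also prefers ERK. Dusp10 and Dusp16 prefer JNK and p38. In T cells, signalling from the antigen receptor through RAS runs into ERK, and Dusp2 was first described as a phosphatase of activated T cells.

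The libraries held 17523927 to 25398037 reads, and all 7 transcripts passed the filter on low values (a normalized read count of at least 10 in at least 3 libraries, which 18576 genes passed). A normalized read count is a gene's reads divided by its library's size factor. The summed counts of 10 Treg markers were 81088 to 132541 in the Treg libraries and 4473 to 25758 in the Tconv libraries. Foxp3 was at 305 to 627 in 5 Tconv libraries (Liver 1 and 3, LDLN 3, PBMC 1, Spleen 3) and at 13.6 to 30.5 in the other 7. Liver Tconv 2 stood apart by its markers of other cells: its 12 macrophage markers summed to 11098 against 252.2 and 272.4 in the other Liver Tconv libraries, and its 9 B cell markers to 25872 against 3304 and 3676. Spleen Treg 1 and PBMC Tconv 2 had the most B cell markers of their groups (20726 and 25298). The 10 erythroid and platelet markers summed to at most 939.7 in LDLN and to at least 6972 in the other tissues. Macrophage markers summed to 2765 to 4804 in Spleen Treg and 214.3 to 358.1 in LDLN Treg, and to 1114 to 1229 in Spleen Tconv and 170.5 to 319.1 in LDLN Tconv. In spleen against LDLN, 7 of 11 of them were called higher in each cell type, as were 10 of 10 erythroid and platelet markers, and 8 of 9 B cell markers in Treg and 0 of 9 in Tconv. The shares of all genes called higher in spleen than in LDLN were 15.4% in Treg and 11.7% in Tconv. In liver against the other tissues, 4 of 9 NK cell markers and 3 of 5 markers of CD8 and innate-like T cells were higher in Tconv. The share of all genes called higher there was 2.58%. In Treg 2 and 1 of these markers were higher, beside 9.66% of all genes. The part of other cells in the tissue differences was not tested.

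The promoters of 4 of the genes are shown because their transcripts varied widely between tissues (Dusp1, Dusp5, Dusp10) or had a tissue pattern that differed between the cell types (Dusp6). No promoter of Dusp4, which also varied widely, is shown. Each is the 250 bases before the RefSeq transcript start on GRCm38.p6, written 5′ to 3′ on the strand of the gene: chr17:26508473-26508722 on the minus strand for Dusp1, chr19:53528895-53529144 for Dusp5, chr10:99262981-99263230 for Dusp6 and chr1:184034131-184034380 for Dusp10, these 3 on the plus strand. Capitals mark matches to the cyclic AMP response element (CRE, TGACGTCA), its 5-base part TGACG and the serum response element core known as the CArG box, each searched on both strands. The windows of Dusp1 and Dusp10 lie inside the gene spans printed below, and that of Dusp5 reaches into its span. The RefSeq starts used here thus differ from the outer ends of those spans. A match describes letters and is not a measured binding site.
Dusp1: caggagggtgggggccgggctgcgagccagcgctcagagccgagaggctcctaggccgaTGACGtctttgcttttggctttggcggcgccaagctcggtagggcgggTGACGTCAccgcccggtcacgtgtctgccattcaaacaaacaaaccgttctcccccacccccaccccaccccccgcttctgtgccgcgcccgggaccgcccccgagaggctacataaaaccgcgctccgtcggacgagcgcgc
Dusp5: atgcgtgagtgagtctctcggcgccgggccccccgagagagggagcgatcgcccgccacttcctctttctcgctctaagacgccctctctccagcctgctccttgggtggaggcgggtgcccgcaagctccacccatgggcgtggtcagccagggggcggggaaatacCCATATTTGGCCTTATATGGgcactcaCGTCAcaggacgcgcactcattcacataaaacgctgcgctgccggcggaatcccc
Dusp6: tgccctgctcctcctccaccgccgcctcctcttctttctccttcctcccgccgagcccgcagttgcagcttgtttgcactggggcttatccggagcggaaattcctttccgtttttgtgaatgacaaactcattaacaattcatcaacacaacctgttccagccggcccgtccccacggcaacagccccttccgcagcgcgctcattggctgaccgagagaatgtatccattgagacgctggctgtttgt
Dusp10: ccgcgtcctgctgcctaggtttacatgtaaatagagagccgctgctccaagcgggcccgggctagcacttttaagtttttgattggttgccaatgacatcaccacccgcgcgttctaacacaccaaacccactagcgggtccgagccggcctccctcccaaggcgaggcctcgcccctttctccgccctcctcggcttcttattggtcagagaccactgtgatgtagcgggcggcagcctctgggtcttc

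The Dusp1 window holds a whole CRE that begins 143 bases before the start, and a separate TGACG at 191 bases. The whole element was in 1.546% of 32851 promoter windows of this length and TGACG in 17.77%. The Dusp5 window holds 2 CArG boxes in a row, beginning 82 and 72 bases before the start (1.467% of windows hold at least 1), and a TGACG at 55 bases. The windows of Dusp6 and Dusp10 hold none of these letters. All 4 windows also lack TATAAA (12.37% of windows), TGANTCA of AP-1 (6.749%) and the kappaB motif (7.251%).

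Whether Treg and Tconv from the same tissue differ in these phosphatases was asked first. Dusp4 was higher in Treg in all 4 tissues, by 6.59-fold to 10.7-fold, and Dusp10 was lower in Treg in all 4, by 1.99-fold to 2.3-fold. Dusp1 and Dusp5 were higher in Treg in some tissues, Dusp6 was lower in Treg of liver and blood, and Dusp2 passed the test in no tissue. Dusp16 was called higher in Treg of spleen alone, where its groups overlap. In liver 3 of the 7 were called higher and 2 lower in Treg, where 10.2% of all genes tested were called higher and 10.3% lower. In LDLN 3 were higher and 1 lower, against 7.83% and 5.99% of all genes. In PBMC 2 were higher and 2 lower, against 10.2% and 7.95%. In spleen 2 were higher and 1 lower, against 10.1% and 8.75%. The count in liver was 3 in place of 5 without the 5 Tconv libraries with Foxp3 above 100, a limit chosen after the values were seen, which leaves 1 Liver Tconv library, the one with the macrophage and B cell markers. In each such liver fit that library is assumed to vary like the other groups.

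**Figure D1:**
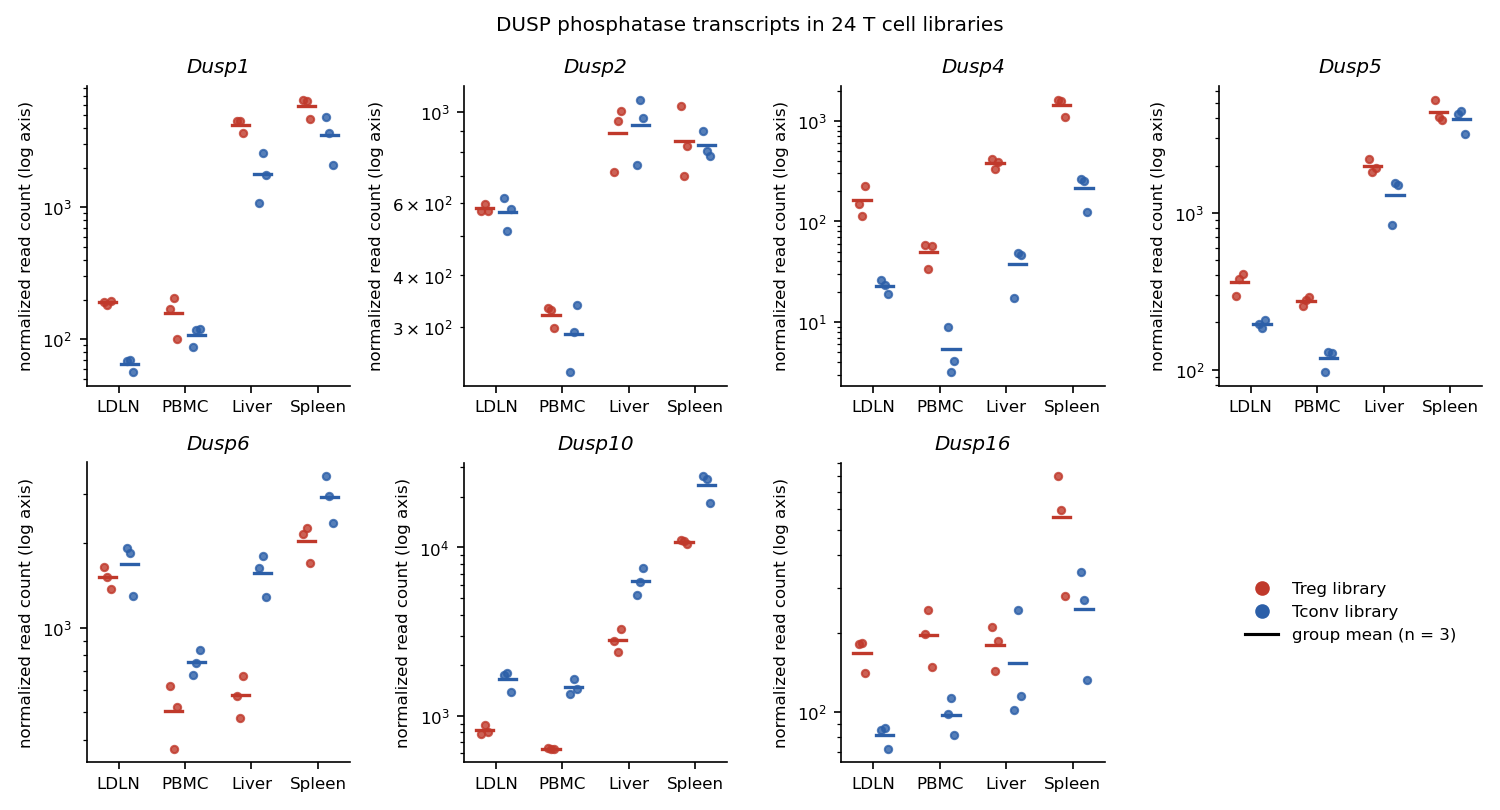
Normalized read count (log axis) of each of the 7 genes in the 24 libraries, by tissue; red points are Treg libraries, blue points Tconv libraries and bars group means (n = 3). Dusp4 is higher in every Treg library than in the Tconv libraries of the same tissue, Dusp10 is lower, and Dusp1, Dusp5 and Dusp10 are highest in liver and spleen.

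Dusp4 (ENSMUSG00000031530, GRCm38 chr8:34807297-34819894, plus strand) encodes a nuclear phosphatase of ERK and JNK. In liver it was at 414.1, 329.6 and 388.8 in the Treg libraries and at 17.2, 49.0 and 46.9 in the Tconv libraries. In LDLN it was at 147.9, 112.7 and 225.7 in Treg and at 26.4, 23.4 and 19.1 in Tconv. The groups were far from overlapping in both tissues. In PBMC the Treg libraries were at 57.7, 33.3 and 57.4 and the Tconv libraries at 8.95, 3.16 and 4.09, near the floor of detection with 3 to 8 reads. In spleen they were at 1628, 1576 and 1090 against 264.0, 254.9 and 125.5. The lowest Spleen Treg library thus held more than any library outside that group. The log2 difference between Treg and Tconv was 3.42 ± 0.38 (SE, adjusted p = 1.43e-06) in liver and 2.72 ± 0.38 (2.16e-05) in LDLN. It was 3.04 ± 0.38 (5.06e-06) in PBMC and 2.78 ± 0.38 (1.84e-05) in spleen. A change of this difference among the 4 tissues was not detected (adjusted p = 0.81 in an F-test).

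Dusp1 (ENSMUSG00000024190, chr17:26505590-26562128, minus strand) encodes the inducible nuclear phosphatase of p38, JNK and ERK. It was at 4486, 4552 and 3654 in Liver Treg and at 1077, 2570 and 1753 in Liver Tconv, without overlap. The difference was 1.31 ± 0.29 on the log2 scale (adjusted p = 0.0021), and 0.71 (adjusted p = 0.148) without the Tconv libraries with Foxp3 above 100. In LDLN it was at 191.6, 182.6 and 196.2 in Treg and 69.0, 69.1 and 56.2 in Tconv, a difference of 1.55 ± 0.29 (adjusted p = 0.00057). LDLN thus had a Treg excess at a level far below that of liver, and its replicates lay close together. In PBMC the Treg libraries were at 168.3, 203.8 and 100.4 and the Tconv libraries at 87.2, 117.0 and 118.7, which overlap (0.50 ± 0.29, adjusted p = 0.275). In spleen they were at 6556, 6425 and 4636 against 4853, 3675 and 2096. The spleen groups overlap through Spleen Tconv 1, and the difference of 0.79 ± 0.29 missed the threshold (adjusted p = 0.0581). It passed with edgeR (0.0492) and DESeq2 (0.04), and in fits without PBMC Treg 3, Spleen Treg 3, Liver Tconv 1, Liver Tconv 2 or Spleen Tconv 1 (0.0192 to 0.0449). The Dusp1 gene model overlaps Ergic1 on the other strand, and the sources used here do not give how strand was counted. Ergic1 was at 197 to 1070 and differed by 0.07 and 0.10 between spleen and LDLN in Treg and Tconv. Its difference between Treg and Tconv is not reported here. The Dusp1 model also overlaps Gm8225 on the other strand, at 0 to 11.6, and AC122252.1 and AC122252.4 on its own strand. Other members overlap genes of the other strand as well: Dusp5 AC137853.2, Dusp10 1700056E22Rik and Dusp16 Gm36328. Of these, 1700056E22Rik was at 0 to 24.8 and higher in spleen than in LDLN by 2.4 in Treg and 2.05 in Tconv.

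Dusp5 (ENSMUSG00000034765, chr19:53529109-53542431, plus strand), the nuclear ERK phosphatase, was at 2192, 1832 and 1920 in Liver Treg and 836.2, 1541 and 1494 in Liver Tconv. The difference was 0.67 ± 0.19 (adjusted p = 0.0162). It rested on Liver Tconv 1, the lowest of the 6, and was 0.38 (adjusted p = 0.133) without that library. It also missed the threshold without Liver Treg 1 (0.59, adjusted p = 0.0726) and without the Tconv libraries with Foxp3 above 100 (0.36, adjusted p = 0.281). LDLN gave 294.9, 378.1 and 407.5 in Treg and 194.8, 185.1 and 208.7 in Tconv (0.86 ± 0.19, adjusted p = 0.0032). PBMC gave 253.5, 278.5 and 292.0 against 96.2, 129.7 and 127.9 (1.22 ± 0.19, adjusted p = 8.35e-05). Every Treg library of these tissues was above every Tconv library. In spleen the values were 5274, 4077 and 3922 in Treg and 4282, 4485 and 3161 in Tconv. Those groups overlap (0.16 ± 0.19, 95% interval -0.24 to 0.56, adjusted p = 0.641). The test of whether the Dusp5 difference varied among tissues missed the threshold (adjusted p = 0.15 in the F-test), and passed with DESeq2 (0.0357), without Liver Tconv 1 (0.0276) and without the Tconv libraries with Foxp3 above 100 (0.0179).

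Dusp16 (ENSMUSG00000030203, chr6:134715468-134792625, minus strand), a phosphatase of JNK and p38, had higher means in Treg in each tissue. In LDLN it was at 182.1, 183.6 and 140.9 in Treg and 85.2, 86.7 and 72.3 in Tconv, and in PBMC at 198.6, 246.2 and 148.6 against 98.4, 112.8 and 81.9. Neither pair of groups overlaps, but the differences of 1.04 ± 0.36 and 0.99 ± 0.36 missed the threshold (adjusted p = 0.0597 and 0.06). With the replicate number as a block, the LDLN and PBMC differences passed (adjusted p = 0.016 and 0.0175). Both passed in fits without Liver Tconv 2, Spleen Treg 1 or 3, or Spleen Tconv 1 or 3 (0.0295 to 0.0478), none of which is in the groups compared. In spleen the libraries spread widely, at 802.2, 594.9 and 279.1 in Treg and 344.9, 267.6 and 132.9 in Tconv. The spleen difference of 1.14 ± 0.36 passed (adjusted p = 0.0287) although the groups overlap. It did not pass without Spleen Treg 1 (0.82, adjusted p = 0.181), Spleen Treg 2 (1.03, 0.1) or Spleen Tconv 3 (0.75, 0.184). In liver the Treg libraries were at 212.3, 144.1 and 186.6 and the Tconv libraries at 101.8, 246.8 and 115.6, where Liver Tconv 2 lies above all Treg libraries (0.32 ± 0.36, adjusted p = 0.57).

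Dusp10 (ENSMUSG00000039384, chr1:184013302-184075636, plus strand), the other phosphatase of JNK and p38, was lower in Treg throughout. In liver it was at 2781, 2399 and 3295 in Treg and 5229, 6242 and 7599 in Tconv, and in LDLN at 783.3, 882.9 and 806.5 against 1752, 1798 and 1388. In PBMC the Treg libraries were at 642.2, 640.7 and 638.3, almost equal, and the Tconv libraries at 1342, 1653 and 1446. In spleen they were at 11099, 10946 and 10436 against 26516, 25420 and 18351. No Treg library reached a Tconv library of its tissue. The log2 difference was -1.17 ± 0.14 (adjusted p = 5.04e-06) in liver and -0.99 ± 0.14 (3.45e-05) in LDLN. It was -1.20 ± 0.14 (2.79e-06) in PBMC and -1.10 ± 0.14 (1.09e-05) in spleen. The calls of Dusp4 and Dusp10 in each tissue passed under every alternative that was run.

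Dusp6 (ENSMUSG00000019960, chr10:99263231-99267489, plus strand), the cytoplasmic ERK phosphatase, was at 574.3, 479.7 and 672.2 in Liver Treg and 1631, 1798 and 1286 in Liver Tconv. The liver difference of -1.45 ± 0.19 (adjusted p = 1.16e-05) had no overlap between the groups. In LDLN the libraries overlapped, at 1652, 1517 and 1373 in Treg and 1931, 1841 and 1295 in Tconv (-0.14 ± 0.19, adjusted p = 0.748). In PBMC they were at 622.3, 371.3 and 521.5 against 677.7, 747.5 and 836.1, with a difference of -0.60 ± 0.19 (adjusted p = 0.0308). The blood difference was -0.40 (adjusted p = 0.2) without PBMC Treg 2, and it also missed the threshold without PBMC Treg 3 (0.0508), PBMC Tconv 2 (0.0688) or PBMC Tconv 3 (0.119). In spleen the values were 2161, 2264 and 1704 in Treg and 3465, 2934 and 2358 in Tconv, without overlap, and the difference of -0.51 ± 0.19 missed the threshold (adjusted p = 0.0685). It passed without PBMC Treg 2 (0.0455) or Spleen Tconv 3 (-0.65, 0.0372). The Treg-Tconv difference of Dusp6 varied among the 4 tissues in the F-test (adjusted p = 0.0411), the 1 member called against 2.00% of all genes. That call was lost in 15 of the 24 fits that left out 1 library, and the adjusted p without Liver Treg 2 was 0.141. It was 0.0889 without the Tconv libraries with Foxp3 above 100 and 0.136 without Liver Tconv 2, PBMC Tconv 2 and Spleen Treg 1.

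Dusp2 (ENSMUSG00000027368, chr2:127336159-127338376, plus strand), the nuclear phosphatase of activated T cells, had no detectable difference between the cell types. It was at 714.2 to 1006 in Liver Treg and 741.8 to 1071 in Liver Tconv, and at 697.1 to 1032 against 782.8 to 899.9 in spleen. In LDLN the ranges were 573.7 to 598.5 and 514.2 to 619.0, and in PBMC 298.1 to 333.8 and 232.6 to 339.7. All 4 pairs of groups overlap. The log2 differences between Treg and Tconv were -0.06, 0.03, 0.17 and 0.02 in liver, LDLN, PBMC and spleen, and the widest 95% limits were -0.39 in liver and 0.50 in PBMC.

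**Figure D2:**
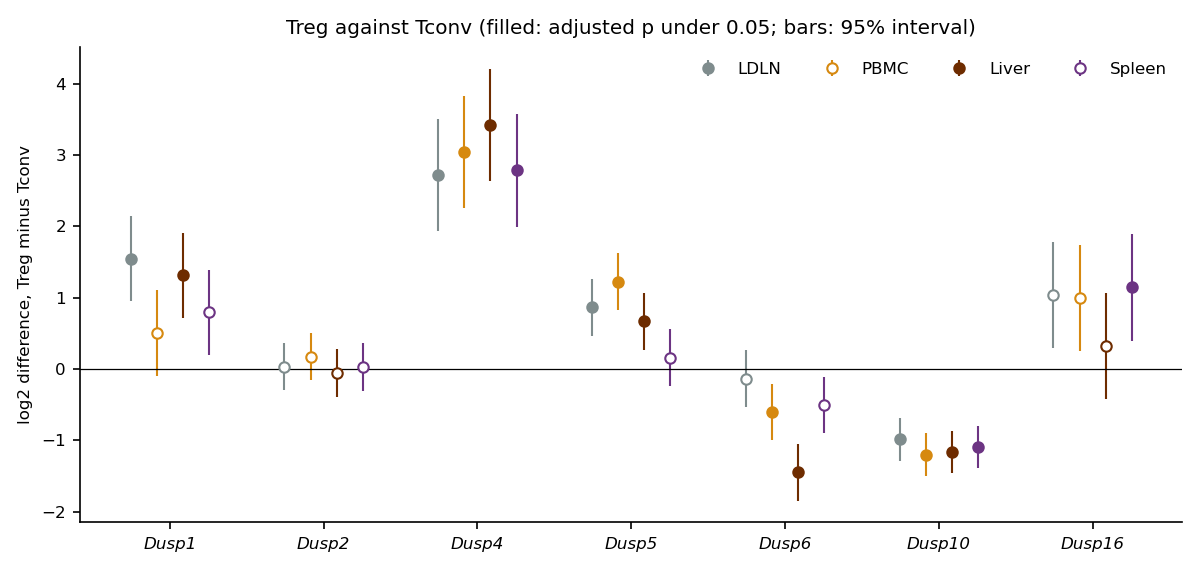
Log2 difference between Treg and Tconv (normalized read count plus 1) for each gene in each tissue; bars are 95% intervals and filled points have an adjusted p under 0.05. Dusp4 lies between 2.72 and 3.42, Dusp10 between -1.20 and -0.99, and Dusp6 is lowest in liver at -1.45.

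The second question was how liver cells differ from those of the other 3 tissues, whose log2 means were averaged with equal weight. In Treg, Dusp1 was 7.62-fold, Dusp5 2.61-fold, Dusp2 1.63-fold and Dusp10 1.57-fold higher in liver than in that average, and Dusp6 was 2.01-fold lower. The 4 higher and 1 lower members stand beside 9.66% and 10.1% of all genes. Within that average, spleen lay above liver for Dusp5 (2.22-fold in Treg, 3.16-fold in Tconv) and Dusp10 (3.86-fold and 3.68-fold). For Dusp1 and Dusp2 a difference between spleen and liver was not detected in Treg. Dusp6 in Liver Treg was not below PBMC Treg (0.21 ± 0.19, adjusted p = 0.514). In Tconv, Dusp1 (5.91-fold), Dusp5 (2.77-fold), Dusp2 (1.79-fold) and Dusp10 (1.64-fold) were higher in liver, 4 of 7 beside 2.58% of all genes, and none was lower. The log2 differences in Treg were 2.93 ± 0.24 for Dusp1, 1.39 ± 0.16 for Dusp5, 0.71 ± 0.13 for Dusp2, 0.65 ± 0.12 for Dusp10 and -1.01 ± 0.16 for Dusp6, with adjusted p of 6e-08, 3.76e-06, 0.000578, 0.000501 and 1e-04. Dusp4 (0.77 ± 0.31, adjusted p = 0.0858) and Dusp16 (-0.51 ± 0.29, adjusted p = 0.225) did not pass in Treg. Dusp4 did pass there with edgeR (0.0329) and DESeq2 (0.0232), with upper quartile scaling (0.0111), and without Liver Tconv 1 (0.047) or the Tconv libraries with Foxp3 above 100 (0.0131).

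The liver effect on Dusp6 differed between the cell types. Its liver difference was -1.01 ± 0.16 in Treg and 0.02 ± 0.16 in Tconv (adjusted p = 0.975), and the difference between these was -1.03 ± 0.22 (95% interval -1.49 to -0.57, adjusted p = 0.0272), the 1 member called against 0.371% of all genes called lower. The 3 Liver Treg libraries, at 479.7 to 672.2, were below all 3 Liver Tconv libraries and below all LDLN and spleen libraries. They overlapped PBMC Treg, at 371.3 to 622.3. The call was lost without Liver Treg 1 (adjusted p = 0.0526), Liver Treg 2 (0.145), Liver Tconv 1 (0.0781) or Liver Tconv 2 (0.0539), with log2 values of -1.04 to -0.91. It was also lost with upper quartile scaling (-0.80, 0.363) and with no variance trend (0.0649). So it was without Liver Tconv 2, PBMC Tconv 2 and Spleen Treg 1 together (-0.91, 0.0812). For the other 6 genes no difference of the liver effect was detected, with adjusted p of 0.499 or more.

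The 6 pairs of tissues were then tested within each cell type, comparisons that were added after the values were seen. Of 42 tests per cell type (7 genes in 6 pairs), 32 passed in Treg and 33 in Tconv. Spleen stood above PBMC for 7 of 7 genes in Treg (beside 14.4% of all genes) and in Tconv (12.6%). Spleen stood above LDLN for 6 of 7 in Treg (15.4%) and 7 of 7 in Tconv (11.7%). Spleen was above liver for 5 of 7 in Treg (10.2%) and 5 in Tconv (4.43%). Liver was above LDLN for 5 of 7 in Treg (15.2%), with Dusp6 the 1 lower gene (14.9%), and for 4 in Tconv (6.78%). Liver was above PBMC for 5 in Treg (7.03%) and 6 in Tconv (3.20%). PBMC was below LDLN for 3 in Treg (7.52%) and 4 in Tconv (2.81%), and no member was called higher in PBMC in any pair. In the F-test among LDLN, PBMC and spleen all 7 passed in Treg, beside 38.8% of all genes, and all 7 in Tconv, beside 27.4%. The Tconv call of Dusp16 was lost without Spleen Tconv 1 (adjusted p = 0.0645).

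The span between the highest and the lowest tissue mean divided the genes. In Treg it was 37.3-fold for Dusp1, 28.9-fold for Dusp4, 16.9-fold for Dusp10 and 16.1-fold for Dusp5. In Tconv it was 54.7-fold for Dusp1, 39.8-fold for Dusp4, 33.7-fold for Dusp5 and 15.8-fold for Dusp10. For Dusp6, Dusp16 and Dusp2 the spans were 2.78-fold to 4.04-fold in both cell types. In such bulk libraries, fewer cells that hold a transcript and less transcript in each cell cannot be told apart.

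Dusp1 rose from 190.1 ± 6.92 (SD, n = 3) in LDLN Treg to 4231 ± 501 in Liver Treg and 5872 ± 1072 in Spleen Treg, and from 64.8 ± 7.42 in LDLN Tconv to 1800 ± 748 and 3541 ± 1383. The log2 difference between spleen and LDLN was 4.93 ± 0.29 in Treg and 5.67 ± 0.29 in Tconv (adjusted p = 1.24e-10 and 1.29e-11). In the order of the 8 groups for Dusp1, Spleen Treg came first, without touching Liver Treg but overlapping Spleen Tconv. LDLN Tconv came last without touching PBMC Tconv. Liver Treg overlapped Spleen Tconv, which overlapped Liver Tconv. The excess of spleen over liver passed in Tconv (0.98 ± 0.29, adjusted p = 0.0385) and not in Treg (0.46 ± 0.29, 0.27). In Tconv it did not pass in fits without 1 of Liver Tconv 1 (0.66, 0.196), Liver Tconv 3 (0.0811), Spleen Tconv 1 (0.71, 0.244) or Spleen Tconv 2 (0.105), or without the Tconv libraries with Foxp3 above 100 (0.72, 0.177).

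Dusp5 kept a clear order, spleen over liver over the other tissues. Its means were 4424 ± 740 in Spleen Treg, 1981 ± 188 in Liver Treg, 360.2 ± 58.4 in LDLN Treg and 274.6 ± 19.6 in PBMC Treg. In Tconv they were 3976 ± 713, 1290 ± 394, 196.2 ± 11.9 and 117.9 ± 18.9. The only neighbours that overlapped in the order of the 8 groups were Spleen Treg and Spleen Tconv. The spleen excess over liver was 1.15 ± 0.19 in Treg and 1.66 ± 0.19 in Tconv (adjusted p = 0.000272 and 1.97e-05), the former 0.74 (adjusted p = 0.079) with upper quartile scaling. PBMC fell below LDLN in Tconv by 0.74 ± 0.19 on the log2 scale (adjusted p = 0.0222), a call lost without any 1 of the LDLN Tconv libraries (0.0555 to 0.0707) or without PBMC Tconv 1 (0.131), and at 0.0501 without the Tconv libraries with Foxp3 above 100.

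Dusp10 had the same order of tissue means. It averaged 23429 ± 4431 in Spleen Tconv, 6357 ± 1189 in Liver Tconv, 1646 ± 225 in LDLN Tconv and 1480 ± 158 in PBMC Tconv. In Treg the means were 10827 ± 347, 2825 ± 450, 824.2 ± 52.1 and 640.4 ± 1.94. The only overlap between neighbours in that order was between LDLN Tconv and PBMC Tconv. Spleen exceeded LDLN by 3.71 ± 0.14 in Treg and 3.82 ± 0.14 in Tconv on the log2 scale, with adjusted p of 1.62e-13 and 1.41e-13.

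Dusp4 was also highest in spleen in both cell types. Spleen exceeded liver by 1.90 ± 0.38 in Treg and 2.54 ± 0.38 in Tconv (adjusted p = 0.00137 and 0.000243). LDLN exceeded PBMC by 3.2-fold in Treg and 3.99-fold in Tconv, where PBMC lay near the floor of detection with 3 to 8 reads. Liver exceeded LDLN in Treg (1.27 ± 0.38, adjusted p = 0.015), a difference of 1.04 with adjusted p of 0.0829 without LDLN Treg 2, and did not pass in Tconv (0.57 ± 0.38, 0.399).

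Dusp6 did not follow that order. LDLN Treg, at 1514 ± 139, lay 2.65-fold above Liver Treg, at 575.4 ± 96.3 (adjusted p = 1.08e-05), while LDLN Tconv and Liver Tconv overlapped at 1689 ± 344 and 1572 ± 261 (-0.10 ± 0.19, adjusted p = 0.834). Spleen was highest, at 2043 ± 298 in Treg and 2919 ± 554 in Tconv, and PBMC lowest, at 505.0 ± 126 and 753.8 ± 79.4. The excess of spleen over LDLN was 0.42 ± 0.19 in Treg (adjusted p = 0.107) and 0.79 ± 0.19 in Tconv (0.00435). In Tconv the excess of spleen over liver (0.89 ± 0.19, 0.00578) was 0.83 (0.0579) without the Tconv libraries with Foxp3 above 100, and that of liver over PBMC (1.05 ± 0.19, 0.00175) was 0.94 (0.0507) without Liver Tconv 2, PBMC Tconv 2 and Spleen Treg 1.

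Dusp2 and Dusp16 varied least. Dusp2 averaged 890.5 ± 155 in Liver Treg and 926.6 ± 168 in Liver Tconv, and its difference from spleen, at 851.8 ± 169 and 828.5 ± 62.6, did not pass. LDLN was at 582.2 ± 14.2 and 571.4 ± 53.1 and PBMC at 320.6 ± 19.6 and 287.8 ± 53.6 in Treg and Tconv. Its excess of spleen over LDLN was 0.53 ± 0.16 in Treg (adjusted p = 0.0159) and did not pass without Spleen Treg 1 (0.38, 0.121). In Tconv it was 0.54 ± 0.16 (0.0186), and did not pass without LDLN Tconv 2 (0.085) or Spleen Tconv 1 (0.0809). The Tconv excess of liver over LDLN (0.68 ± 0.16, 0.00678) was lost without Liver Tconv 2 (0.0598). Dusp16 averaged 558.7 ± 263 in Spleen Treg and 168.9 to 197.8 in the other Treg groups, which overlapped each other. In Tconv its mean was 248.5 ± 107 in spleen, 154.7 ± 80.1 in liver, 97.7 ± 15.5 in PBMC and 81.4 ± 7.94 in LDLN. Its excess of spleen over PBMC was 1.39 ± 0.36 in Treg (adjusted p = 0.00576), and missed the threshold without Spleen Treg 1 (1.07, 0.0515). In Tconv it was 1.24 ± 0.36 (0.0156), and missed it without PBMC Tconv 3 (0.063), Spleen Tconv 1 (0.106) or Spleen Tconv 2 (0.059). Its excess of liver over LDLN in Tconv did not pass (0.81 ± 0.36, 0.162). It was 1.51 without the Tconv libraries with Foxp3 above 100, which leaves Liver Tconv 2 alone in its group. That library, with its markers of other cells, held Dusp16 at 246.8, against 101.8 and 115.6 in Liver Tconv 1 and 3.

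**Figure D3:**
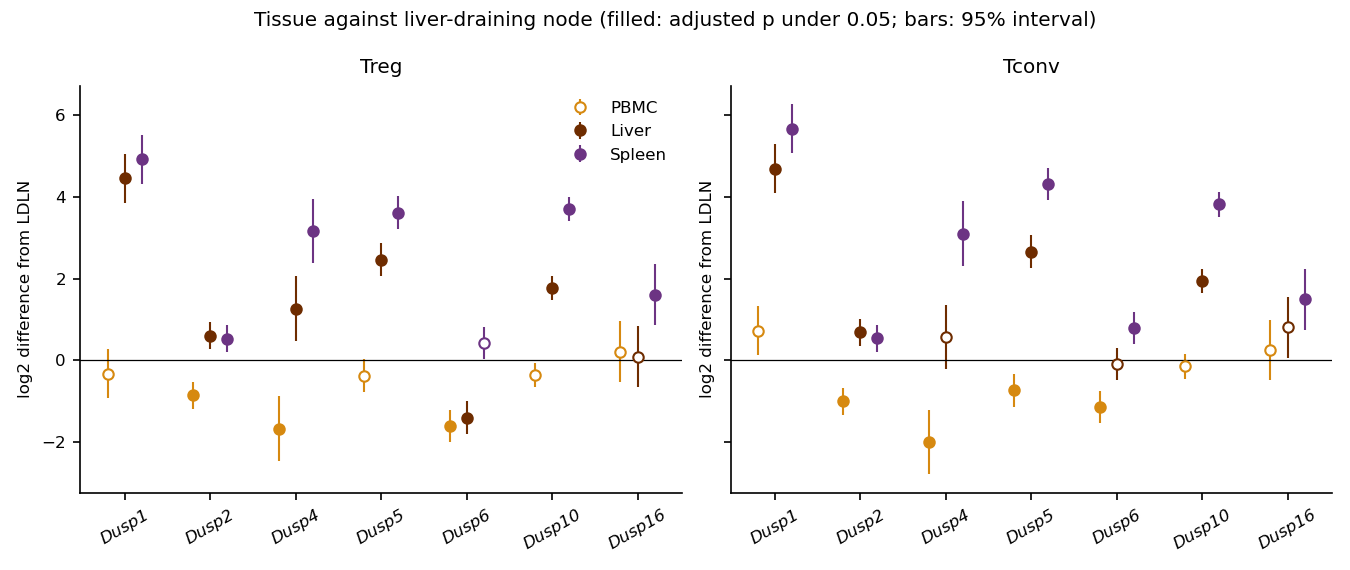
Log2 difference of PBMC, liver and spleen from LDLN for each gene, in Treg (left) and Tconv (right); bars are 95% intervals, filled points have an adjusted p under 0.05, and the 3 differences of a gene share the LDLN libraries. Dusp1 reaches 4.93 in Treg and 5.67 in Tconv in spleen, and Dusp6 in liver lies at -1.40 in Treg and -0.10 in Tconv.

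Levels of different genes were set side by side only per kilobase of exon. On that scale the make-up of the 7 transcripts differed between groups. Dusp6 made up 36.4% of the summed level in LDLN Treg and in LDLN Tconv, but 4.84% in Liver Treg and 7.42% in Spleen Treg. In Liver Treg the largest share was that of Dusp1, 33.7%, followed by Dusp10 with 24.5% and Dusp5 with 21.1%. Dusp10 led in Liver Tconv (50.3%), PBMC Tconv (50.4%), Spleen Tconv (65.1%), Spleen Treg (40.5%) and PBMC Treg (28.7%). In LDLN Tconv it held 36.5%, next to Dusp6. Dusp16 stayed at or under 3.46% in each group. These shares are of group means and were not tested.

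**Figure D4:**
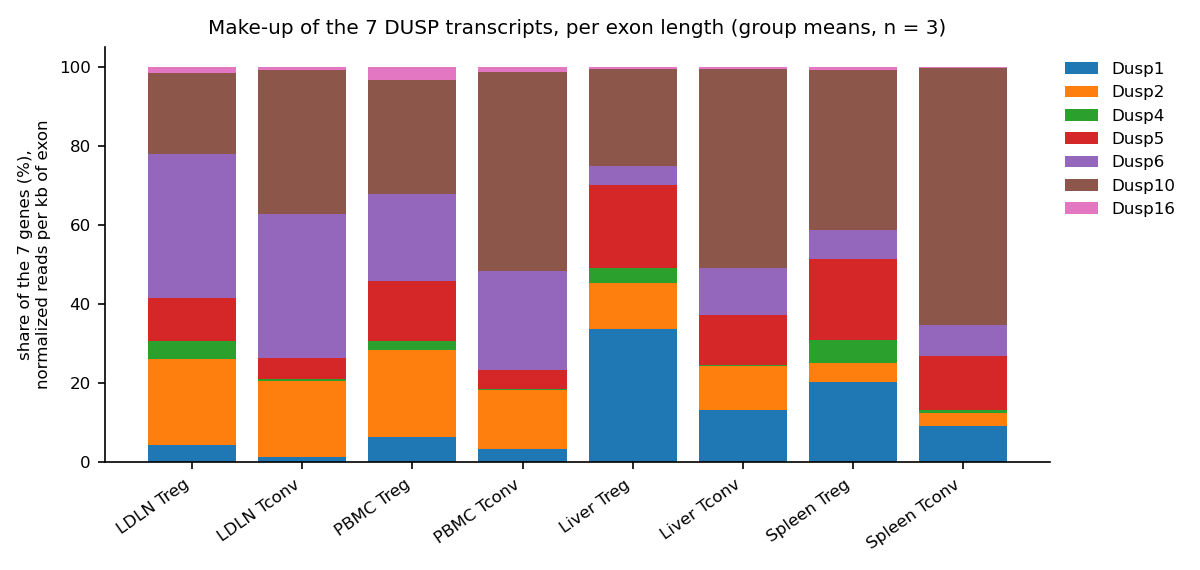
Share (percent) of each gene in the summed normalized reads per kb of exon of the 7 genes, from group means (n = 3). Dusp6 (purple) holds 36.4% in both LDLN groups and 4.84% in Liver Treg, and Dusp1 (blue) holds 33.7% in Liver Treg.

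Across the 24 libraries Dusp1 and Dusp5 were the closest pair (Pearson r = 0.963 of log2 values). Dusp5 and Dusp10 gave r = 0.977 over the 12 Treg libraries, 0.983 over the 12 Tconv libraries and 0.845 over all 24. Dusp1 and Dusp6 gave 0.306 over all 24, 0.247 over the 12 Treg libraries and 0.653 over the 12 Tconv libraries. These values describe libraries that share tissue groups, and carry no test. The genes most like each member over the 24 libraries, out of 10548 candidates, were Tnfaip3 (0.988), Jund (0.98) and Fosb (0.978) for Dusp1, Sik1 (0.975), Crem (0.975) and Tnfaip3 (0.968) for Dusp5, and Stk17b (0.974), Ddx3x (0.969) and Eif1 (0.968) for Dusp10. Tnfaip3 encodes the NF-kappaB inhibitor A20, and Jund and Fosb encode AP-1 subunits. For Dusp2 they were Nr4a1 (0.928), Egr1 (0.897) and Nfkbid (0.886), of which Nr4a1 and Egr1 are immediate early genes of antigen receptor signalling. For Dusp4 they were Trib1 (0.953), Samsn1 (0.95) and Cd274 (0.948), for Dusp6 Btbd11 (0.929), Pvr (0.928) and Umps (0.925), and for Dusp16 Col4a3bp (0.928), Ell2 (0.925) and Rab43 (0.925).

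The wider MAP kinase pathway was read in the comparison of spleen with LDLN, from lists chosen with earlier results of these data known. The median log2 difference of the 7 phosphatase genes was 3.17 in Treg and 3.11 in Tconv, and that of all genes tested was 0.0063 and 0.038. Of the 24 immediate early genes, which are transcribed within minutes of signalling, 19 were higher in spleen in Treg (median 2.55) and 17 in Tconv (median 2.16), and none was lower, beside 15.4% and 11.7% of all genes called higher and 12.6% and 9.80% called lower. Fos rose by 6.83 ± 0.26 in Treg and 6.63 ± 0.26 in Tconv, Fosb by 7.42 ± 0.46 and 6.58 ± 0.46, and Klf6 by 3.13 ± 0.19 and 3.75 ± 0.19. Fos averaged 140.5 in LDLN Treg, 383.1 in PBMC Treg, 18071 in Liver Treg and 16060 in Spleen Treg, the same division of the tissues as Dusp1. The summed immediate early genes were at 31666 to 32055 in LDLN Treg, 36678 to 45925 in PBMC Treg, 163690 to 166886 in Liver Treg and 147813 to 187345 in Spleen Treg. In Tconv these sums were 28632 to 32157 in LDLN, 36295 to 43116 in PBMC, 92347 to 169600 in liver and 131503 to 182631 in spleen. Their part in the tissue differences of the phosphatases was not tested.

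In the comparison of liver with the other 3 tissues, 16 of 24 immediate early genes were higher and 2 lower in Treg (beside 9.66% and 10.1% of all genes) and 14 were higher in Tconv (2.58%). Fos was higher in liver by 4.27 ± 0.21 in Treg and 4.08 ± 0.21 in Tconv (adjusted p = 3.61e-11 and 9.11e-11), and Zfp36, which encodes an RNA-destabilising protein, by 2.09 ± 0.12 and 1.18 ± 0.12. Of 10 heat shock genes tested, 2 were higher in liver in each cell type, Hspa1a (5.55 ± 0.93 in Treg, adjusted p = 0.000239, and 4.97 ± 0.93 in Tconv, 0.00337) and its near-identical copy Hspa1b, between which reads may be split. In Tconv Hspa1a did not pass without Liver Tconv 2 (3.73, 0.0914), nor did Hspa1b (2.50, 0.419), and in Treg Hspa1b did not pass without Liver Treg 2 (3.11, 0.0522). Hspa1a averaged 462.6 ± 501 in Liver Treg and 42.2 ± 51.2 in Spleen Treg. The part of these genes in the liver differences was not tested either.

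Among the 11 other DUSP genes that could be tested (of 17 listed), 4 were higher and 1 lower in spleen than in LDLN in Treg, and 3 were higher and 1 lower in Tconv. The shares of all genes were 15.4% higher and 12.6% lower in Treg and 11.7% and 9.80% in Tconv. The count in Treg was 3 in place of 5 without LDLN Treg 3, Spleen Treg 1 or Spleen Treg 2, and also 3 with upper quartile scaling. Dusp8, a phosphatase of JNK and p38, averaged 270.6 ± 145 in Spleen Treg and 278.1 ± 251 in Spleen Tconv and was at 0 to 1.90 in LDLN Treg and 2.01 to 4.06 in LDLN Tconv (adjusted p = 3.66e-08 and 1.6e-06). Dusp14 rose by 2.88 ± 0.68 in Treg and 3.51 ± 0.68 in Tconv. Dusp7, another cytoplasmic ERK phosphatase, was lower in spleen, by -0.37 ± 0.12 and -0.71 ± 0.12 (adjusted p = 0.0215 and 0.000144). The Treg call of Dusp7 was lost without LDLN Treg 2 (0.0606), LDLN Treg 3 (0.0615), Spleen Treg 1 (0.102) or Spleen Treg 2 (0.0617), and with upper quartile scaling both calls were lost (-0.51, 0.281 in Treg and -0.59, 0.238 in Tconv). The median of these 11 genes was 0.175 in Treg and -0.043 in Tconv.

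Of 11 MAP kinase genes tested 3, beside 15.4% of all genes in Treg and 11.7% in Tconv, were higher in spleen in each cell type: Mapk6 (0.81 ± 0.13 and 0.56 ± 0.13), Mapk8, which encodes a JNK (0.44 ± 0.10 and 0.46 ± 0.10), and Mapk14, which encodes a p38 kinase (0.33 ± 0.11 in both). The Mapk14 calls were lost in Treg without LDLN Treg 1 (0.134) or 3 (0.103) or any 1 Spleen Treg library (0.0656 to 0.101), and in Tconv without LDLN Tconv 2 (0.0919) or 3 (0.144) or Spleen Tconv 1 (0.209) or 2 (0.0872). With upper quartile scaling the count was 1 in Treg and 0 in Tconv. Among the kinases upstream, 3 of 7 MAP kinase kinases and 7 of 24 MAP3 kinases and RAS inputs were higher in spleen in each cell type and none was lower. Of 10 kinases downstream of MAP kinases 4 were higher in Treg, and 2 were higher and 2 lower in Tconv. With upper quartile scaling the counts of these 3 lists were 1, 0 and 1 in Treg and 1, 2 and 0 in Tconv. They also rested on single libraries: the count of MAP3 kinases and RAS inputs was 4 without LDLN Treg 1, Spleen Treg 1 or Spleen Treg 2 in Treg and 2 to 4 without LDLN Tconv 1, LDLN Tconv 3 or Spleen Tconv 1 in Tconv. That of MAP kinase kinases was 1 in Tconv without LDLN Tconv 1, LDLN Tconv 3 or Spleen Tconv 2. That of the downstream kinases was 2 without LDLN Treg 1, LDLN Treg 2 or Spleen Treg 1 in Treg and 1 or 2 without LDLN Tconv 1, LDLN Tconv 2 or Spleen Tconv 1 in Tconv. Of 17 genes listed under Sprouty, Spred and RAS-ERK feedback, not all of them inhibitors, 6 were higher in Treg (beside 15.4% of all genes). In Tconv 5 of them were higher and 1 lower (beside 11.7% and 9.80%). With upper quartile scaling 3 of these 17 were called in Treg. The Tconv count was 3 without LDLN Tconv 3 and also 3 without the Tconv libraries with Foxp3 above 100. Errfi1, a feedback inhibitor of receptor kinases, rose by 3.45 ± 0.28 and 2.53 ± 0.28 (adjusted p = 1.08e-08 and 8.95e-07), and Spry1, an inhibitor of RAS signalling, by 2.73 ± 0.39 in Tconv.

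**Figure D5:**
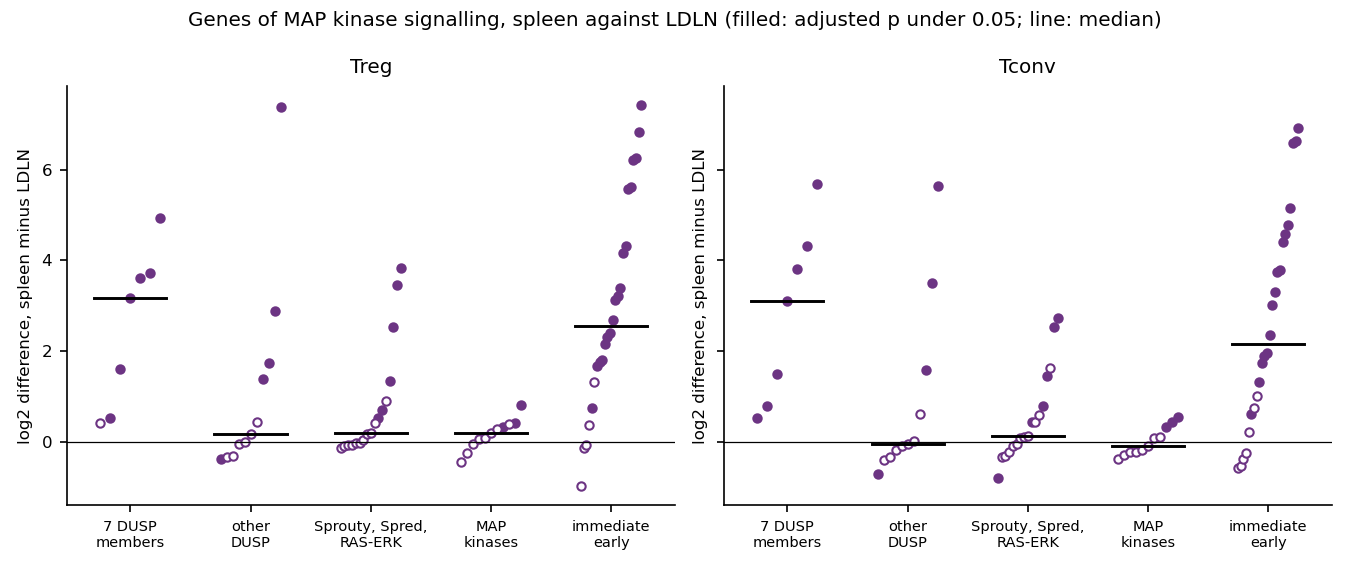
Log2 difference between spleen and LDLN for each gene of 5 groups, in Treg (left) and Tconv (right); filled points have an adjusted p under 0.05 and lines are medians. The medians are 3.17 and 3.11 for the 7 phosphatase genes and 2.55 and 2.16 for the immediate early genes, and lie between -0.075 and 0.20 for the other groups.

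Beside the phosphatases, some genes of the pathway differed between Treg and Tconv. In liver, LDLN, PBMC and spleen, 3, 1, 5 and 4 of 9 other MAP kinase phosphatases were higher in Treg and 0 lower. Of 11 MAP kinases 2, 1, 2 and 1 were higher and 2, 2, 1 and 2 lower. Of 12 ETS factors and AP-1 partners of ERK 0, 1, 2 and 1 were higher and 2, 1, 1 and 2 lower. The shares of all genes were 10.2%, 7.83%, 10.2% and 10.1% higher and 10.3%, 5.99%, 7.95% and 8.75% lower. The genes named next are examples, and Mapk12 is described further on. Ppm1l, a phosphatase of another family that acts on the kinases upstream of JNK and p38, was higher in Treg by 1.42, 2.57, 2.15 and 1.99 in liver, LDLN, PBMC and spleen (SE 0.20 each). Nlk, an atypical MAP kinase, was lower in Treg by -0.71, -0.66, -0.92 and -0.70 (SE 0.09 each). With upper quartile scaling the Nlk calls of liver (-0.46, 0.284), LDLN (-0.48, 0.361) and spleen (-0.77, 0.0511) were lost. Etv5, an ETS factor whose transcription follows ERK activity, was higher in Treg of LDLN (1.46 ± 0.23), PBMC (1.18 ± 0.23) and spleen (1.71 ± 0.23) and was lower in Liver Treg than in the mean of the other Treg groups (-0.68 ± 0.19, adjusted p = 0.0133), the latter lost without Liver Treg 1 (0.0866) or 2 (0.0839). In that comparison of liver with other Treg, 2 genes of RAS and ERK inhibitors were lower along with Dusp6, Spred1 (-1.16 ± 0.17, adjusted p = 4.73e-05) and Spred2 (-0.76 ± 0.14, 0.00074). With upper quartile scaling the liver calls of Etv5 (-0.35, 0.31) and Spred2 (-0.42, 0.174) were lost. In all, 6 of the 17 genes listed under Sprouty, Spred and RAS-ERK feedback were lower there (beside 10.1% of all genes) and 2 were higher (9.66%). The higher genes include Lgals3 (2.92 ± 0.36), which encodes galectin-3 and is not counted here as an inhibitor.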

How the data were processed

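The authors deposited 1 table of normalized read count signal (reads divided by a size factor per library). Reads had passed through HTSeq 0.6.1p1, SAMtools 0.1.19, TopHat2 2.0.11, Trimmomatic 0.32 and Bowtie2 2.2.2, in an order not recorded, on the GRCm38 build, per the submitters' processing notes. Whole reads were recovered from the steps for 100% of values (tolerance 0.001). Genes at 10 or more in at least 3 libraries (18576) were tested on log2(value + 1), which understates the change of low genes, with limma 3.58.1 in R 4.3.3: 8 group means, a variance trend, 16 residual degrees of freedom. Adjusted p-values are Benjamini-Hochberg over these genes and calls were made at 0.05. The procedure was tested on simulated data. edgeR 4.0.16 and DESeq2 1.42.0 were run on recovered reads as alternatives. Symbols and coordinates came from GENCODE on GRCm38, promoters from RefSeq. How strand was counted is not given in the sources used here.

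All 7 members are named, with up to 4 called genes per list and comparison with the smallest adjusted p, and the 3 genes most correlated with each member. Members and lists were chosen with earlier results of these data known. The replicates were pools of mice, whose spread is what the p-values measure. The labels do not say that numbers pair pools. Deviations of same-numbered Treg and Tconv libraries from their group means had positive correlations in each tissue. They were 0.102 to 0.385 in liver, 0.122 to 0.31 in LDLN, 0.0822 to 0.252 in PBMC and 0.0707 to 0.416 in spleen. Differently numbered libraries of a tissue gave -0.304 to 0.2. Hepatocyte markers were not analysed here.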

Additional observations from a re-analysis of the deposited data

Results flagged for a closer look

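The liver effect on Dusp6 in Treg minus that in Tconv was -1.031 on the log2 scale (adjusted p = 0.0272), a difference between the cell types by an interaction test. Dusp6 was lower in Treg of liver in 3 of 3 libraries than in any Tconv library of liver. The Treg and Tconv libraries were also without overlap in PBMC and spleen, with smaller differences, and overlapped in LDLN. The share of all genes without overlap was not counted. The call was lost in 4 of the fits that left out 1 library, each a Liver library, and with upper quartile scaling. The same call was lost with no variance trend (adjusted p = 0.0649) and without Liver Tconv 2, PBMC Tconv 2 and Spleen Treg 1 together (0.0812).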

How the results depend on the processing

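No result for the 7 genes changed direction while past the threshold under any alternative. For these genes, in the comparisons other than pairs of tissues, 2482 values under alternatives kept their call, 50 gained and 49 lost it, and 37 that passed in neither fit changed sign. The 5 calls between Treg and Tconv in liver became 3 without the Tconv libraries with Foxp3 above 100. The 3 calls in spleen became 5 with DESeq2, with the replicate block and with the replicate block within tissue. The block added Dusp16 in LDLN and PBMC (adjusted p = 0.016 and 0.0175) and Dusp1 and Dusp6 in spleen (0.0302 and 0.0479), and changed no other call of a Treg-Tconv difference. The 1 call for the Treg-Tconv difference among tissues became 2 with DESeq2 and 0 with no filter, no variance trend, upper quartile scaling or without Liver Tconv 2, PBMC Tconv 2 and Spleen Treg 1, and was 0 to 1 on leaving out 1 library. The 1 call for the liver effect between cell types became 0 with no variance trend, upper quartile scaling or without those 3 libraries, and was 0 to 1 on leaving out 1 library. For the pathway genes that are named, 1699 values kept their call and 92 lost it, mainly those of Mapk12 and Mapk14. Mapk12, a p38 gene, was called higher in Treg in 4 tissues by 1.17 to 1.74 (adjusted p = 0.00397 to 0.048), and lost its liver, LDLN and spleen calls in many of these fits. The causes were not tested.

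Upper quartile scaling shifted the median of all genes by up to 0.335 in the comparisons other than pairs of tissues and by -0.407 between spleen and liver in Treg, and lowered the counts of all genes called: in Treg against Tconv from 3808 to 1720 (liver), 2568 to 1398 (LDLN), 3377 to 1276 (PBMC) and 3501 to 1223 (spleen). The liver count was 1371 without the Tconv libraries with Foxp3 above 100, and the PBMC count 2206 with the compared groups alone. Liver against other tissues in Tconv went from 590 to 288 with those groups alone, 947 with edgeR, 1137 with DESeq2, 1350 without the Tconv libraries with Foxp3 above 100 and 171 without the 3 libraries. The liver effect between cell types ran from 11 (upper quartile) to 412 (DESeq2) around 139, and the difference among tissues from 52 to 931 around 372. The F-test among lymphoid tissues fell from 7199 to 3011 in Treg and from 5089 to 2076 in Tconv.

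Depth limits Dusp4 in PBMC Tconv, with 3 to 8 reads. The alternatives without 5 and without 3 libraries were chosen after seeing the data.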
